A study of Homo sapiens with 3 samples.

Results

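The replication-dependent histone gene clusters were examined as a set of 3′ end sites: 528 of the 780576 sites that merging gave over the whole data set. They comprise all positions with counts, on either strand, in 3 windows of hg19: chr6:26017000-26285000 (window A), chr6:27770000-27870000 (window B) and chr1:149780000-149870000 (window C). Windows A and B lie in histone cluster 1 and window C in cluster 2. A stretch of 12 kb inside window A was left out. A site is a local maximum together with the counts of its strand up to 24 nt away, and it is named here by its highest position. Window A held 306 sites, window B 155 and window C 67.

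All RNA came from HEK293T cells, an established line derived from human embryonic kidney, grown in DMEM with 10% FBS. The assay, 2P-seq, reads the junction of an RNA with its poly(A) tail from an oligo(dT) primer. One group was RNA captured after 30 min with 4-thiouridine (4sU), a uridine analogue built into RNA during synthesis, one was RNA captured after 60 min, and one was the input of the 30 min labelling; the labels give 1000 mM as the 4sU concentration, a unit that may be a slip, and "none" as the treatment of the input. With a single library in each group (n = 1), none of the differences has a replicate check. Intervals are 95% and cover counting error only, since amplified reads need not come from separate molecules. The 4sU libraries also skipped the first poly(A) selection, and if the input had it, capture and selection cannot be told apart.

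Replication-dependent histone genes code for the core histones H2A, H2B, H3 and H4 and the linker histone H1, which package DNA and are made mainly in S phase. Their mRNAs are unusual in ending at a conserved stem-loop, bound by SLBP, after cleavage guided by the U7 snRNP, and not in a poly(A) tail. Some of these genes are also known to give polyadenylated mRNAs from sites past the stem-loop. Oligo(dT) can prime on a poly(A) tail and also on A-rich stretches inside an RNA, so the counts below are ends seen by oligo(dT), not the level of histone mRNA.

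The RefSeq table for GRCh38.p14 lists 55 protein-coding genes with former HIST1 symbols on chromosome 6, of which 6 code for H1, 12 for H2A, 15 for H2B, 10 for H3 and 12 for H4. It lists 12 with former HIST2 symbols on chromosome 1: 4 for H2A, 2 for H2B, 4 for H3 and 2 for H4. These genes are short, with a median length of 489 nt in HIST1 and 527.5 nt in HIST2. Only 5 of the HIST1 genes and 4 of the HIST2 genes span 1000 nt or more, among them H2BC4 with 10757 nt, H2BC5 with 13229 nt, H2BC12 with 8566 nt and H2BC21 with 2224 nt. Some of them lie outside the 3 windows. That table is of another build than the counts, so sites are given by position, with no gene, exon or intron assigned to them. Many of these genes are near-identical copies, and the handling of reads with several matches was not given in the sources used here.

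In all, the libraries held 14159691 counts (4sU 30 min), 8926568 (4sU 60 min) and 35410931 (input). Without the mitochondrial genome, which took 31.8%, 31.1% and 7.46% of them, they held 9652023, 6151986 and 32768468 nuclear counts; the part of this difference in the results was not tested. Levels are CPM, counts scaled to 1000000 nuclear counts, so 3 counts, the floor used where a count was 0, correspond to 0.311, 0.488 and 0.0916 CPM in that order. No gene was assigned, so the cell line was not checked against marker genes. The strand in the files was read as the strand of the RNA, an assumption.

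Ends seen by oligo(dT) in the histone clusters took a small part of the nuclear counts. That part was not set against the length of the windows or their number of genes. The windows held 2113 counts in the 30 min library, 1414 in the 60 min library and 3204 in the input. These are 219 CPM (209.7 to 228), 229.8 CPM (218 to 242) and 97.8 CPM (94.4 to 101), or 0.0219%, 0.0230% and 0.00978% of nuclear counts. The captured libraries were thus 2.24-fold (2.12 to 2.37) and 2.35-fold (2.21 to 2.50) above the input, while 60 min and 30 min differed by a ratio of 1.05 (0.981 to 1.12). Both captured libraries are set against the same input, so their ratios are not independent. For reading these ratios, the median nuclear site with a mean of at least 1 CPM over the libraries had ratios of 1.95, 1.39 and 0.784 in the same 3 comparisons. That is a median over single sites, an unlike measure to a ratio of summed counts, which this scaling sets to 1 for the nuclear genome. With median-of-ratios scaling the windows' ratio at 30 min was 1.21 (1.14 to 1.28) and with TMM 1.32 (1.25 to 1.39).

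Most member sites were weak, while a few held most of the counts. Of the 528 sites, 469 had fewer than 20 counts over the 3 libraries. Those weak sites held 23.7% (21.9 to 25.6) of the windows' counts in the 30 min library, 23.7% (21.5 to 26.0) in the 60 min library and 17.1% (15.8 to 18.4) in the input. Over the nuclear genome, sites that weak held 5.48%, 6.77% and 2.05% of counts. Each position with counts carried 2.93, 2.66 and 4.29 counts on average in the windows, against 11.4, 9.59 and 32.4 in the nuclear genome.

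Among the 59 member sites with at least 20 counts, only 1 (1.69%) reached a mean of 10 CPM, against 18.5% of 58672 such nuclear sites. Their median gap to the next site on the same strand, 947 nt, was near the genome's 962 nt. Isolated sites, with no other within 10000 nt on the strand, were 6 of 59 (10.2%) in the windows and 22.6% in the genome. The highest position held a median of 50% of a member site's counts and 45.0% of a nuclear site's. A single member site had at least 90% of its counts at 1 position, against 5.25% of nuclear sites. In window C the sites of at least 20 counts formed separate knots, from 149815200 to 149821830 and from 149856012 to 149858960, with none of that strength between them.

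**Figure D1:**
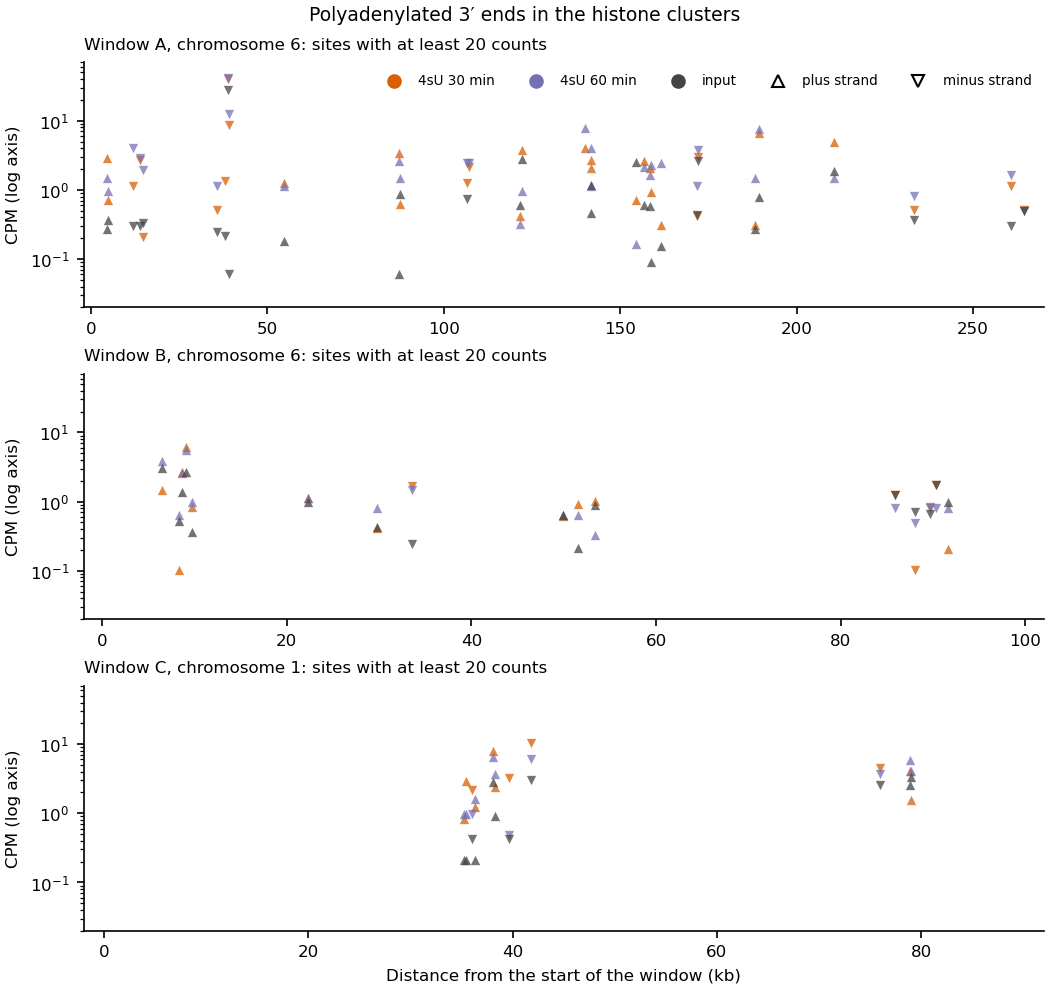
Level in CPM (log axis) of each member site with at least 20 counts over the libraries, against distance in kb from the start of its window, with colour for the library and triangle direction for the strand; counts of 0 are not drawn. The highest site of window A, at 27.5 to 41.6 CPM, stands above all others, and window C shows its ends in separate knots.

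The windows differed in how far they stood above the input. Window A held 1292, 911 and 1853 counts (4sU 30 min, 4sU 60 min, input), or ratios to input of 2.37 (2.20 to 2.54) and 2.62 (2.42 to 2.84). Window B held 359, 233 and 749 counts, with ratios of 1.63 (1.43 to 1.85) and 1.66 (1.42 to 1.92). Window C held 462, 270 and 602 counts, with ratios of 2.61 (2.30 to 2.95) and 2.39 (2.06 to 2.76). Set against each other, which cancels any scaling, the ratio of window A was 1.45 times (1.26 to 1.69) that of window B at 30 min and 1.58 times (1.33 to 1.88) at 60 min. Window C exceeded window B 1.60 times (1.34 to 1.91) and 1.44 times (1.17 to 1.78). Between windows C and A the intervals included 1, at 1.10 (0.954 to 1.27) and 0.912 (0.771 to 1.08).

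One site weighed on window A. Without its highest site, its ratios to input were 3.22 (2.94 to 3.53) and 3.67 (3.32 to 4.06), and window C then stood at 0.808 (0.692 to 0.943) and 0.651 (0.544 to 0.778) of window A. At 30 min window A had a ratio to input of 3.02 (2.68 to 3.40) on the plus strand and 2.06 (1.88 to 2.25) on the minus strand, which holds that site. In window C the order was the opposite, with 2.21 (1.86 to 2.62) and 3.15 (2.63 to 3.78), and window B had 1.63 (1.4 to 1.90) and 1.62 (1.28 to 2.03). In window C the minus strand moved from 24.3 CPM at 30 min to 17.7 CPM at 60 min, a ratio of 0.728 (0.574 to 0.917). The plus strand went from 23.5 to 26.2 CPM, 1.11 (0.904 to 1.37). In that comparison the median nuclear site of the filter stood at 0.784, a single-site measure unlike these summed ratios. Strand sums were not computed under other scalings. Median-of-ratios scaling moved the ratio of 60 to 30 min for all windows from 1.05 to 1.43. Minus-strand sites of window C that passed the filter had ratios of 0.152 and 0.590, with intervals that excluded 1. The others there had 0.448 and 0.820, with intervals that included 1.

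The most abundant end of the clusters was at chr6:26055935 on the minus strand. It had 389 counts (40.3 CPM) in the 30 min library, 256 (41.6 CPM) in the 60 min library and 902 (27.5 CPM) in the input. It took 18.4% (16.8 to 20.1), 18.1% (16.2 to 20.2) and 28.2% (26.6 to 29.7) of the windows' counts, so more of the input than of the captured RNA. Its ratios to input were 1.46 (1.30 to 1.65) and 1.51 (1.31 to 1.74), under the 2-fold used for calls, and 60 min stood at 1.03 (0.878 to 1.21) of 30 min. The direction at 30 min depended on the scaling, with 0.790 (0.700 to 0.891) under median-of-ratios size factors and 0.862 (0.763 to 0.972) under TMM. Its ends were spread over a narrow zone: the peak position held 50.1%, 42.6% and 49.7% of the counts, and positions had a standard deviation (SD) of 3.23, 3.81 and 3.05 nt.

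An end 257 nt upstream on the same strand, at chr6:26056192, was almost confined to captured RNA. It reached a mean of 1 CPM over the libraries only through the 4sU libraries. It had 85 counts (8.81 CPM) in the 30 min library, 77 (12.5 CPM) in the 60 min library and 2 (0.0610 CPM) in the input, ratios of 144 (38.7 to 1211) and 205 (54.9 to 1724). Within this pair, the downstream end at chr6:26055935 held 82.1% (78.4 to 85.3) of counts in the 30 min library, 76.9% (72.1 to 81.1) in the 60 min library and 99.8% (99.2 to 99.9) in the input. The downstream share was thus lower in captured RNA, with a difference of -17.7 points (-21.4 to -14.5) for 30 min and of -22.9 points (-27.7 to -18.7) for 60 min. Between 30 and 60 min the interval of the difference, -10.97 to 0.416 points, included 0.

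**Figure D2:**
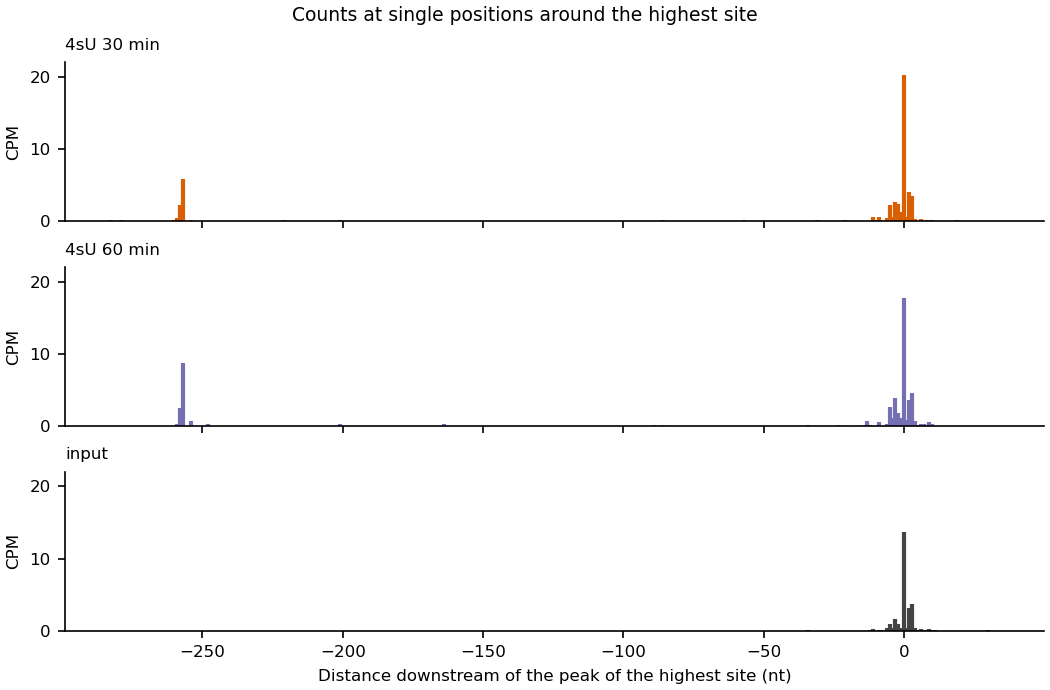
CPM at single positions (vertical lines) in the 4sU 30 min, 4sU 60 min and input libraries, against distance in nt downstream of the peak of the most abundant site. The downstream end stands in all 3 libraries, while the upstream end, 257 nt away, has 8.81 and 12.5 CPM in the 4sU libraries and 0.0610 CPM in the input.

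For single sites, ratios were compared where the mean over the libraries was at least 1 CPM, and a site was called where the ratio was at least 2-fold and its interval excluded 1. Of the 528 member sites 37 passed: 20 in window A, 7 in window B and 10 in window C. The other 491 summed to 627, 461 and 880 counts, and 270 of them had a single count in all. The nearest to the threshold were chr6:26104564 at 0.990 CPM, just outside, and chr6:26277834 at 1.02 CPM, just inside. The mean includes the 4sU libraries, so a site can pass because it is high there; only 16 of the 37 reached 1 CPM in the input itself.

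At 30 min, 24 of the 37 sites were called higher than input (64.9%) and 3 lower, with a median ratio of 3.46. Over all 40146 nuclear sites of the same filter, 48.9% were called higher and 12.4% lower, with a median ratio of 1.95. Among nuclear sites of 1 to 10 CPM, the class of 36 of the members, 53.9% were called higher and 10.7% lower. In that class the median ratio was 2.38, beside 3.52 for the members in it. Among the 16 members with at least 1 CPM in the input, 5 were higher and 3 lower, against 26.8% and 20.5% of nuclear sites chosen that way. Over the 37 members, median-of-ratios size factors gave 15 higher and 3 lower, against 32.6% and 27.9% of nuclear sites.

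At 60 min, 22 of the 37 were called higher than input and 2 lower, with a median ratio of 2.49. The background was 37.5% higher and 17.0% lower, with a median ratio of 1.39, and among sites of 1 to 10 CPM it was 41.3% and 15.2%. In that class the median ratio was 1.61, beside 2.64 for the members in it. With at least 1 CPM in the input, 5 of 16 members were higher and 2 lower, against 17.8% and 26.2% of nuclear sites. With 1 library per group these shares describe the libraries, and no test stands behind their difference.

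**Figure D3:**
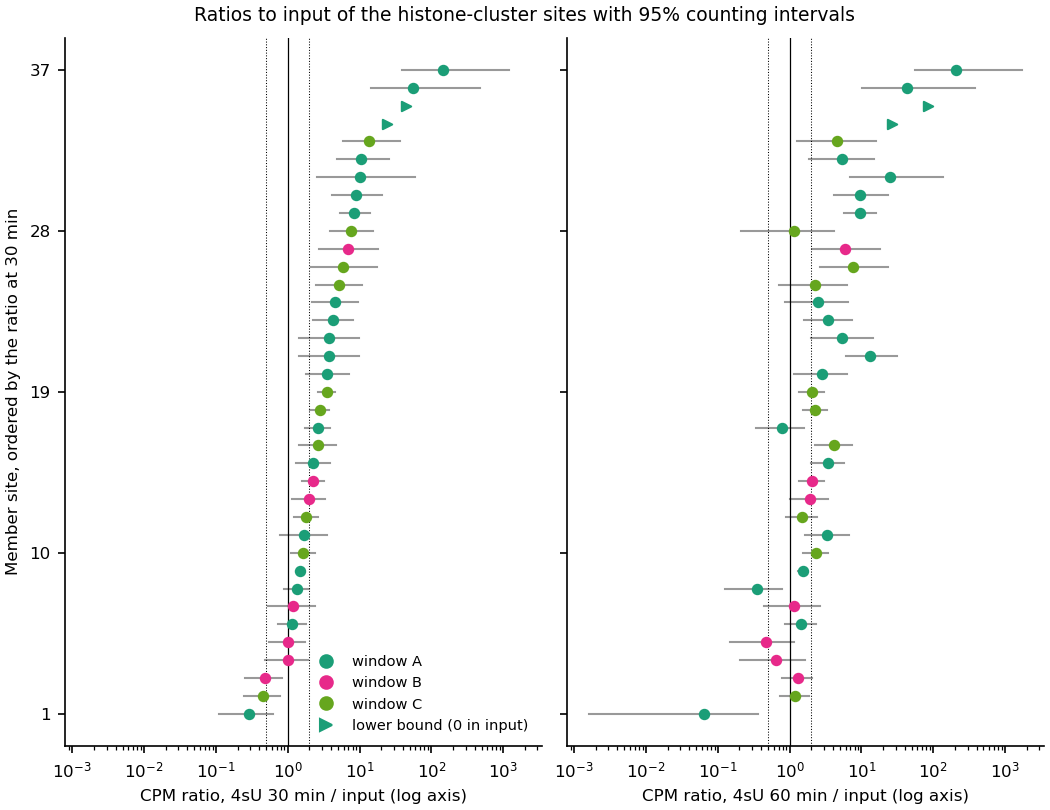
CPM ratio to input (log axis) of the 37 member sites at 30 min (left) and 60 min (right), ordered from the lowest ratio at 30 min, with 95% counting intervals as lines, colour for the window, and a solid line at 1 and dotted lines at 2-fold. Arrowheads mark 2 sites without input counts, whose ratios use the floor for the input and whose exact intervals begin lower. Of the 37 ratios, 33 and 32 lie above 1 at 30 and 60 min.

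**Figure D4:**
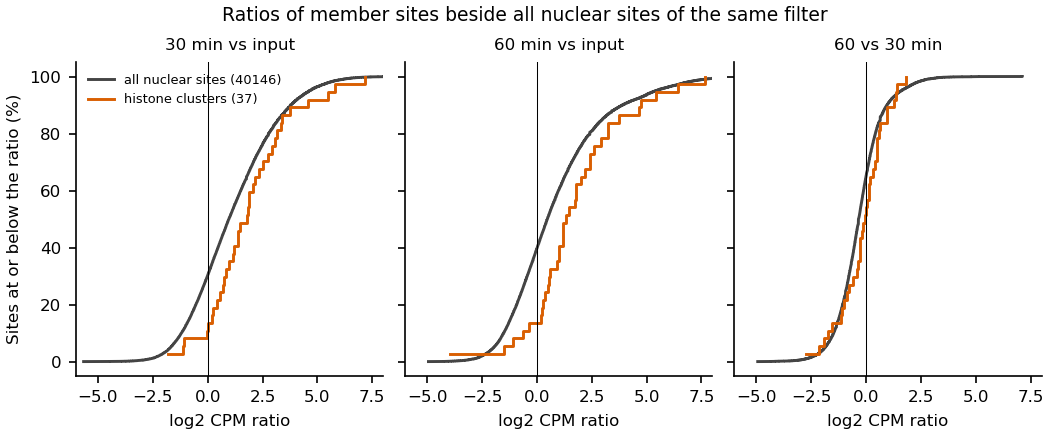
Cumulative share of sites (%) against log2 CPM ratio for 30 min against input, 60 min against input and 60 against 30 min, for the 37 member sites and all 40146 nuclear sites of the same filter. The members' curves lie to the right against input, with median ratios of 3.46 and 2.49 beside 1.95 and 1.39. Among sites of 1 to 10 CPM, the class of 36 of the members, the medians were 3.52 and 2.64 beside 2.38 and 1.61. Of the members, 21 had under 1 CPM in the input.

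Several ends of window A were seen nearly only in captured RNA. At chr6:26157082 on the plus strand there were 39 counts in the 30 min library, 48 in the 60 min library and 0 in the input. Against the floor of 3 input counts its ratios were 44.1 and 85.2, and the exact intervals began at 34.2 and 66.7. Its ends were fixed, with 94.9% (83.1 to 98.6) of counts at 1 position at 30 min and 89.6% (77.8 to 95.5) at 60 min. At chr6:26124073 on the minus strand, counts were 21, 15 and 0, and 85.7% (65.4 to 95.0) of the 30 min counts lay at 1 position. On the same floor its ratios were 23.8 and 26.6, with intervals that began at 17.7 and 19.1. Counts at chr6:26104412 on the plus strand were 33, 16 and 2, with ratios of 56.0 (14.3 to 482) and 42.6 (10.02 to 382). This end was broader, with a position SD of 7.91 nt at 30 min.

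Other ends of window A were higher in captured RNA and had at least 10 input counts, though all 3 described here were below 1 CPM in the input. At chr6:26206265 on the plus strand there were 65 counts (6.73 CPM) in the 30 min library, 46 (7.48 CPM) in the 60 min library and 26 (0.793 CPM) in the input. Its ratios were 8.49 (5.31 to 13.9) and 9.42 (5.70 to 15.9), and 60 min stood at 1.11 (0.744 to 1.64) of 30 min. At chr6:26030858 on the minus strand, counts of 26, 18 and 10 gave 8.83-fold (4.12 to 20.5) and 9.59-fold (4.20 to 23.2). Downstream on that strand, chr6:26029081 had 11, 25 and 10 counts, and its ratio moved from 3.73 (1.44 to 9.81) at 30 min to 13.3 (6.18 to 31.1) at 60 min. The call at 30 min was lost with TMM (2.20) and with median-of-ratios scaling (2.02).

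Further ends of window A were called at one or both times. At chr6:26175612 on the plus strand, counts of 9 at 30 min, 14 at 60 min and 3 in the input gave 10.2 (2.54 to 58.5) and 24.9 (6.94 to 135). At chr6:26021678 on the plus strand, counts of 28, 9 and 9 gave 10.6 (4.85 to 25.4) and 5.33 (1.87 to 15.1). The plus-strand neighbours chr6:26173885 (25, 13 and 20 counts) and chr6:26175510 (20, 10 and 19 counts) had ratios of 4.24 (2.26 to 8.06) and 3.57 (1.81 to 7.08) at 30 min and of 3.46 (1.58 to 7.31) and 2.80 (1.16 to 6.34) at 60 min. The calls of chr6:26175510 were lost with median-of-ratios scaling at 30 min (1.93) and, at 60 min, with that scaling (2.06), TMM (2.05) and chrM in the total (2.09), where the intervals included 1. At chr6:26158834 on the plus strand, counts of 26, 25 and 39 gave 2.26 (1.32 to 3.81) and 3.41 (1.98 to 5.79), but the call at 30 min was lost under the other scalings (1.22 to 1.67) and with merging at 10 nt (1.42). Its neighbour chr6:26158865 (20, 7 and 15 counts) was called at 30 min, at 4.53 (2.20 to 9.50), though not with merging at 10 nt, and chr6:26277834 on the minus strand (11, 10 and 10 counts) at both times, at 3.73 (1.44 to 9.81) and 5.33 (1.99 to 14.3), the first lost with TMM and median-of-ratios scaling. At chr6:26227699 on the plus strand, with 47, 9 and 61 counts, the ratio of 2.62 (1.75 to 3.89) at 30 min fell below the rule under the other scalings (1.41 to 1.93). At chr6:26123696 on the minus strand, with 12, 15 and 24 counts, the call was made at 60 min, at 3.33 (1.62 to 6.61), and not at 30 min, at 1.70 (0.774 to 3.53); the ratio of 60 to 30 min, 1.96, had an interval that included 1 (0.857 to 4.59). An end called in neither comparison was chr6:26188939 on the minus strand, which had 29, 23 and 85 counts and 82.5% of them at 1 position.

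At 30 min 3 of the 37 sites were called lower than input, against 12.4% of nuclear sites. With at least 1 CPM in the input they were 3 of 16, against 20.5%. This opposite pattern was clearest at chr6:26171574 on the plus strand. It had 7 counts (0.725 CPM) in the 30 min library, 1 (0.163 CPM) in the 60 min library and 83 (2.53 CPM) in the input. It was 3.49-fold lower (1.62 to 8.96) at 30 min, and at 60 min its ratio to input was 0.0642 with an interval from 0.00161 to 0.368, resting on a single count. Of the 83 input counts 67.5% (56.8 to 76.6) lay at 1 position. At chr6:26139183 on the plus strand, counts of 36, 6 and 91 gave a ratio of 1.34 (0.887 to 2.0) at 30 min and 2.85-fold lower (1.26 to 7.96) at 60 min. Also called lower at 30 min were chr6:27776444 in window B and chr1:149858960 in window C, the latter at 0.459 (0.248 to 0.790). With merging at 50 nt the call of chr1:149858960 was lost, at 0.980 (0.715 to 1.33).

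Window B had few ends far from the input. Its strongest, chr6:27779076 on the plus strand, had 59 counts (6.11 CPM) in the 30 min library, 34 (5.53 CPM) in the 60 min library and 89 (2.72 CPM) in the input, or 2.25-fold (1.59 to 3.16) and 2.03-fold (1.33 to 3.05). Of the 7 sites tested, only chr6:27779076 and chr6:27803573 were called higher at both times. The latter, on the minus strand, had 16, 9 and 8 counts and ratios of 6.79 (2.74 to 18.3) and 5.99 (2.05 to 17.8). Its call at 60 min was lost with merging at 10 nt, at 1.78 (0.175 to 9.93). The calls of chr6:27779076 were lost with TMM (1.32 at 30 min, 1.49 at 60 min) and with median-of-ratios scaling (1.21 at 30 min, 1.5 at 60 min). At chr6:27776444 on the plus strand counts were 14, 24 and 99, which was 2.08-fold lower (1.18 to 3.95) than input at 30 min and 1.29 (0.790 to 2.03) times the input at 60 min. Ratios near 1 at 30 min were seen at chr6:27792257 on the plus strand (1.17, 0.531 to 2.38) and chr6:27855897 on the minus strand (0.994, 0.475 to 1.93). The median of the 7 ratios in window B was 1.17 at 30 min and 1.29 at 60 min, against 3.99 and 4.39 over the 20 sites of window A and 3.12 and 2.27 over the 10 of window C. The filter bears on this, since 14 of the 20 sites of window A, 2 of the 7 of window B and 5 of the 10 of window C had under 1 CPM in the input. Over the sites with at least 1 CPM there, the medians were 1.4 and 1.11 in window A, 1.01 and 1.29 in window B and 1.80 and 2.04 in window C.

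In window C the strongest ends at 30 min were in the first knot. At chr1:149821830 on the minus strand there were 101 counts (10.5 CPM) in the 30 min library, 38 (6.18 CPM) in the 60 min library and 99 (3.02 CPM) in the input, or 3.46-fold (2.60 to 4.62) and 2.04-fold (1.37 to 3.0). On the plus strand, chr1:149818052 had 77, 40 and 94 counts, with ratios of 2.78 (2.03 to 3.80) and 2.27 (1.52 to 3.31). With median-of-ratios scaling these sites were at 1.87 and 1.5 at 30 min and at 1.5 and 1.67 at 60 min, under 2-fold. At chr1:149815444 on the plus strand counts were 28, 6 and 7, with ratios of 13.6 (5.80 to 36.8) and 4.57 (1.27 to 15.9). The call at 60 min was lost under the other scalings, whose ratios of 3.35 to 3.40 had intervals that included 1. In the same knot, chr1:149816334 on the plus strand (12, 10 and 7 counts) had 5.82 (2.11 to 17.4) and 7.61 (2.61 to 23.6), and chr1:149818283 on the plus strand (23, 23 and 30 counts) had 2.60 (1.44 to 4.63) and 4.08 (2.27 to 7.27). The call of chr1:149818283 at 30 min was lost with chrM in the total (1.92), median-of-ratios scaling (1.4) and TMM (1.53). Also in that knot, on the minus strand, chr1:149819650 had 7.52 (3.88 to 15.3) at 30 min and 1.14 (0.210 to 4.09) at 60 min. On the same strand chr1:149816058 had 5.09 (2.47 to 10.8) and 2.28 (0.719 to 6.32). Both were called at 30 min only. The end at chr1:149856012 on the minus strand, in the other knot, had 44, 23 and 83 counts and ratios of 1.80 (1.22 to 2.62) and 1.48 (0.887 to 2.37), under 2-fold at both times; at 30 min median-of-ratios scaling gave 0.971 (0.658 to 1.42) and TMM 1.06 (0.718 to 1.55).

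Between labelling times few member sites differed by 2-fold. From 30 to 60 min, 3 of 37 were called higher and 4 lower, against 8.12% and 18.0% of nuclear sites; the median ratio was 0.965 beside 0.784. Among sites of 1 to 10 CPM the background was 9.43% and 19.5%. The split became 8 higher and 3 lower under median-of-ratios size factors, and TMM gave 6 and 3. Higher at 60 min were chr6:26029081 (3.57, 1.69 to 8.03), chr6:27776444 (2.69, 1.34 to 5.62) and chr1:149858960 on the plus strand (2.61, 1.33 to 5.33). The call of chr1:149858960 was lost with merging at 50 nt, at 1.71 (1.17 to 2.50). Lowest was chr1:149819650 on the minus strand, with 31 counts in the 30 min library, 3 in the 60 min library and 14 in the input, a ratio of 60 to 30 min of 0.152 (0.0297 to 0.487). The others called lower were chr6:26139183 (0.261, 0.0901 to 0.627), chr6:26227699 on the plus strand (0.300, 0.129 to 0.620) and chr1:149815444 (0.336, 0.114 to 0.828), whose call was lost with median-of-ratios scaling (0.458) and TMM (0.418).

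Neighbouring ends were also compared by their shares, which do not depend on scaling. Sites of a strand with at least 20 counts, at most 2000 nt apart, were grouped, and sites under 5% of their group were dropped. Groups were kept if they had more than 1 site, at least 100 counts, and counts in every library. This gave 11 groups in the windows, and these may join ends of different genes. Within each group, the share of the downstream-most end was called different at 10 points or more with an interval of the difference (Newcombe) that excluded 0. At 30 min it was higher than in input in 1 group and lower in 3, against 18.0% and 10.5% of 7737 groups over the genome. The counts were again 1 and 3 at 60 min, against 19.3% and 10.8%. Between the labelling times, 2 groups were higher at 60 min and 2 lower, against 8.36% and 7.87%.

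A close pair of window C showed such a change in the same direction as the pair in window A. Of the counts at chr1:149858926 and chr1:149858960 on the plus strand, the downstream end held 27.3% in the 30 min library (15 of 55), 41.0% in the 60 min library (25 of 61) and 57.2% in the input (111 of 194). It differed from input by -29.9 points (-42.0 to -15.2) for 30 min and by -16.2 points (-29.5 to -1.87) for 60 min. These ends lie 34 nt apart, so this result exists only where sites are kept apart at that distance. With merging at 50 nt they were 1 site, with a ratio to input of 0.980 at 30 min and 1.67 at 60 min.

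A pair and a group of 3 ends in window A went the other way. In the pair, spanning 1017 nt on the plus strand, the downstream end, chr6:26206265, held 95.6% (87.8 to 98.5) in the 30 min library, 83.6% (71.7 to 91.1) in the 60 min library and 74.3% (57.9 to 85.8) in the input. It was higher than in input by 21.3 points (7.38 to 37.9) at 30 min, and at 60 min by 9.35 points, with an interval that included 0 (-7.23 to 27.3). In the group, spanning 1727 nt, the outermost, chr6:26175612, held 16.7%, 37.8% and 7.14%, higher than in input by 30.7 points (12.5 to 47.4) at 60 min. In the group that ends at chr6:26158865, the downstream share was 23.5%, 8.75% and 27.8%, a difference from input of -19.0 points (-32.9 to -5.95) at 60 min. This group also holds chr6:26157082, the end without input counts, and chr6:26158834, the close neighbour of chr6:26158865. With merging at 50 nt chr6:26158834 and chr6:26158865 fell into the same site, with ratios to input of 2.89 at 30 min and 3.16 at 60 min. The downstream share of this group thus exists only where these neighbours are kept apart.

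**Figure D5:**
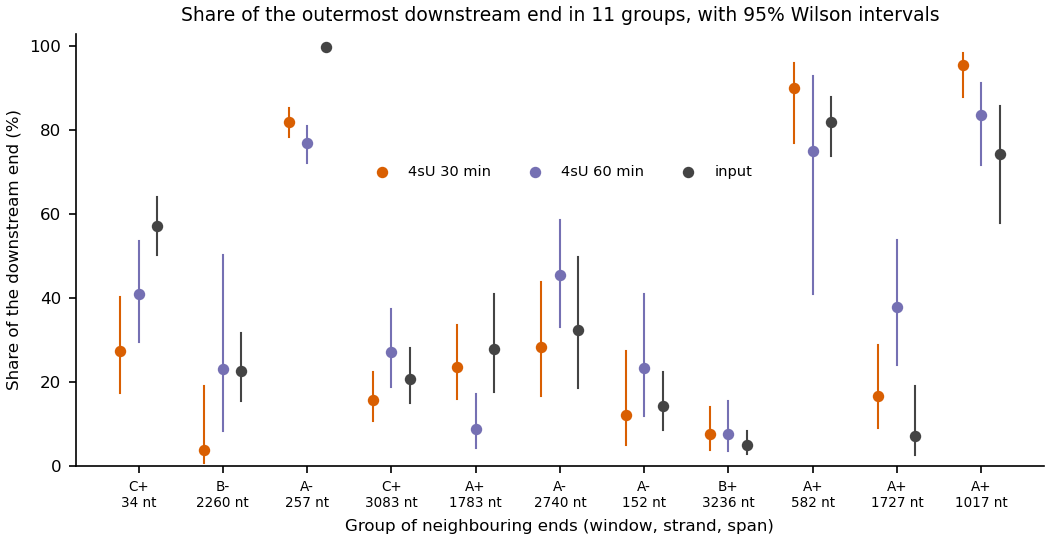
Share (%) of the outermost downstream end in each of the 11 groups of neighbouring ends, with 95% Wilson intervals, for the 3 libraries; labels give window, strand and span in nt. In the group of 257 nt the input stands at 99.8%, above both 4sU libraries, and in the group of 1017 nt at 74.3%, below both.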

How the data were processed

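Per the labels' protocols, RNase T1 fragments with a poly(A) stretch were selected on oligo(dT) and sequenced from the tail; the 4sU libraries skipped an earlier poly(A) selection, and whether the input did was not given in the sources used here. Cutadapt and Bowtie appear in the submitters' processing notes, with versions, build and handling of multiple matches not given in the sources used here. All deposited values are raw counts at single positions, with no normalization. Counts on chromosome 1 reach position 249223263, past the last gene of the GRCh38.p14 table (248937099), and the windows are given in hg19.

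Sites, nuclear CPM, ratios with exact intervals of 2 Poisson counts, Wilson and Newcombe intervals of shares, and exact conditional intervals of ratios of ratios were computed with Python 3.11.15, pandas 2.3.3 and scipy 1.17.1; TMM factors came from edgeR 4.0.16. Merging, intervals of single-site ratios and calls were checked on simulated counts. Those counts were Poisson draws, the model that the intervals assume. Window sums, ratios of ratios and group shares were not simulated. Single libraries allow no test, so no p-value is given. Named sites were those with a mean of at least 10 CPM and, among sites of at least 1 CPM with 20 counts in a compared library, the 10 highest and 10 lowest ratios of each comparison; further sites in the text were picked with their values in view. The windows, members and rules were chosen with earlier results of these data known. Alternatives were other scalings, filters, merge distances and call rules. No sequence of the counts' build was used here, so poly(A) signals, stem-loops and A-rich stretches were not examined.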

Additional observations from a re-analysis of the deposited data

Results flagged for a closer look

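At 5 of the 37 sites the ratio to input lay above 1 at one labelling time and below 1 at the other; with 1 library each the difference between the times was not tested against replicates. At chr6:26139183 on the plus strand it was 1.34 at 30 min and 0.351 at 60 min. At chr6:26227699 on the plus strand (47, 9 and 61 counts at 30 min, 60 min and in input) it was 2.62 and 0.786. The end chr6:27776444 on the plus strand had 0.480 and 1.29, and chr1:149858960 on the plus strand had 0.459 and 1.20. At chr6:27860354 on the minus strand, with 17, 5 and 57 counts, it was 1.01 and 0.467, and the interval of its ratio of 60 to 30 min, 0.133 to 1.30, included 1. With median-of-ratios scaling only chr6:26227699 kept its ratios on opposite sides of 1, at 1.41 and 0.578.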

How the results depend on the processing

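No paired analysis was possible because each group has 1 library and the labels give no replicate numbers. Depth limits single sites, of which 21 of the 37 had under 1 CPM in the input, and the scaling moves every ratio of a comparison by 1 factor. The windows' ratio at 30 min was 1.65 with chrM counts in the total, 1.21 with median-of-ratios scaling, 1.32 with TMM, 2.54 without the highest site and 2.06 over sites of at least 20 counts. At 60 min these were 1.75, 1.73, 1.72, 2.68 and 2.16. From 30 to 60 min the ratio was 1.43 with median-of-ratios scaling and 1.31 with TMM, and their intervals then excluded 1. Called member sites fell to 0 in each comparison with a mean of at least 10 CPM, where only 1 site was left. With at least 1 CPM in the input, chosen after seeing the data, 16 sites were left and 8 were called at 30 min, 7 at 60 min and 4 between the times. Between the times, 11 were called with median-of-ratios scaling and 11 with at least 0.5 CPM. No called site turned direction under another scaling or merge distance. The median log2 ratio of all nuclear sites moved from 0.97 to 0.075 at 30 min with median-of-ratios scaling, from 0.47 to 0.031 at 60 min, and from -0.35 to 0.096 between the times.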
